A study of Mus musculus with 16 samples.

Results

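The double-stranded RNA sensors examined here were 7 mouse genes, Ifih1, Ddx58 (also written Rigi), Dhx58, Tlr3, Eif2ak2, Zbp1 and Mavs. They were chosen by name as textbook sensors of double-stranded RNA and their adaptor, and every probe set annotated to them was taken. This gave 16 probe sets of 45037 on the array other than controls, for 7 of 18193 named genes. Values were measured in cultured spermatogonial stem cells, the germ cells of the testis that renew themselves and give rise to sperm. The cultures came from germ cells enriched for the surface protein Thy1, of C57BL\6 genetic background. They grew without serum in 20 ng/ml of GDNF, 150 ng/ml of its receptor chain GFRα1 and 1 ng/ml of FGF2, and every culture received a short interfering RNA (siRNA) for 30 h. The groups were a negative control siRNA and siRNA against Etv5, Bcl6b or Pou3f1, which encode transcription factors, with 4 arrays in each of the 4 groups. No culture without siRNA was analysed here, and the siRNA sequences are not given in the sources used here. An effect of a targeted gene and an effect of its siRNA duplex therefore cannot be told apart. The labels do not say whether the replicates of a group came from separate cultures, so the p-values measure the spread between these arrays, which may be technical.

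Vertebrate cells sense double-stranded RNA, a common product of virus replication, in the cytosol and in endosomes. In the cytosol the helicases RIG-I (Ddx58) and MDA5 (Ifih1) bind it and signal through MAVS on the mitochondrial membrane to switch on interferon genes, while the related helicase LGP2 (Dhx58) modulates both. TLR3 binds it in endosomes, the kinase PKR (Eif2ak2) responds to it by blocking translation through eIF2 alpha, and ZBP1 recognises left-handed Z-form nucleic acids and can start cell death through RIPK3. These genes, other than Mavs, are known to be induced by interferon. Many interferon-induced genes carry a promoter motif called the interferon-stimulated response element (ISRE), which the interferon-activated complex of STAT and IRF proteins binds. Some siRNA duplexes are known to engage several of these sensors in cultured cells.

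RefSeq promoter windows of GRCm38.p6, from 250 bases before to 50 bases after the annotated start, were at hand for 5 of the 7 genes, all but Dhx58 and Zbp1. The core of the ISRE was searched as GAAANNGAAA, which reads TTTCNNTTTC on the other strand. It lay in the windows of Ifih1, Ddx58 and Eif2ak2, and 1131 of all 32851 promoter windows held it, or 3.44%. These 3 windows are shown because they hold the motif, with the match in capitals, each on the minus strand of its chromosome and written 5′ to 3′. They lie at chr2:62646206-62646505 for Ifih1, chr4:40239776-40240075 for Ddx58 and chr17:78882523-78882822 for Eif2ak2.
Ifih1: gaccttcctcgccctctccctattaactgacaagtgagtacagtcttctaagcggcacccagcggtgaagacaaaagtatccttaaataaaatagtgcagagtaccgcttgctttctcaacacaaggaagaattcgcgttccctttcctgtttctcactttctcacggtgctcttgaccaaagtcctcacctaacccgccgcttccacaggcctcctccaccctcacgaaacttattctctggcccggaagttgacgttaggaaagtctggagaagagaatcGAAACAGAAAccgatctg
Ddx58: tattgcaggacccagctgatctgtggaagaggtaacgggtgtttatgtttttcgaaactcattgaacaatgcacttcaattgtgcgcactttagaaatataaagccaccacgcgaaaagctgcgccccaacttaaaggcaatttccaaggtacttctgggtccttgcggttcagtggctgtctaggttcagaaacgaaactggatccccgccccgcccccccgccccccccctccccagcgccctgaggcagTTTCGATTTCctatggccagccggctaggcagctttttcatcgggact
Eif2ak2: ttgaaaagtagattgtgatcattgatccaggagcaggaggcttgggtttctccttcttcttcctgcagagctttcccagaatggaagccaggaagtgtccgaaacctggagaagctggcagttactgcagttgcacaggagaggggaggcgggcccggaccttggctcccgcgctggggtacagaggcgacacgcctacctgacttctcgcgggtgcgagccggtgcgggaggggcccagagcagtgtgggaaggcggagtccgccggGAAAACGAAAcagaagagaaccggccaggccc
The match began 32 bases downstream of the annotated first base in Ifih1, 2 bases downstream in Ddx58, where it was on the other strand, and 18 bases downstream in Eif2ak2. In the Tlr3 and Mavs windows these letters were not found. The Tlr3 window, chr8:45410331-45410630, lay inside the annotated gene, which ends at 45411075 and is on the minus strand. It was thus set on an internal start, and the sequence before the gene's outermost start was not searched. The gamma-activated sequence, searched as TTCNNNGAA, was present in the Eif2ak2 window and in 8.3% of all windows. The NF-kappaB motif was present in the Tlr3 window and in 4.51% of all windows. A match of letters is a description of the window and not a binding site.

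The arrays had similar median intensities, from 15.8 to 17.3 on the deposited linear scale, and 15 of the 16 correlated with the others at a mean Pearson r of 0.9964 to 0.9971. Bcl6b knockdown replicate 1 stood apart at 0.975. On that array the 3′ control probe sets of Gapdh and Actb exceeded the 5′ ones by 1.03 and 3.08 on the log2 scale. The remaining 15 arrays ranged from −0.53 to −0.45 for Gapdh and from 0.62 to 0.76 for Actb. The sensors were therefore tested in a fit of all 16 arrays and in a fit of the 15 without it. For other genes a value with no number of arrays is from the 16. A gene was called where limma gave a Benjamini-Hochberg adjusted p under 0.05 over the 11145 genes tested, all 7 sensors among them. The targeted genes were lower in their own knockdowns, Etv5 by a log2 difference of −1.49, Bcl6b by −1.01 and Pou3f1 by −0.68, with adjusted p from 1.67e-04 to 0.00115 in limma over 16 arrays, and all 3 were also called over 15. Bcl6b was lower in Etv5 knockdown too, by −1.10 (adjusted p = 6.21e-05), about as much as in its own knockdown. Between those knockdowns it differed by 0.09 and was not called (adjusted p = 0.704).

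Markers of germ cells and of fibroblasts or feeder cells were all above the array median, 8 of 8 in each list, so both kinds of cell could carry the sensors, and which of them did was not tested. Of 9 macrophage and leukocyte markers, Adgre1, Aif1 and Itgam lay below the median on every array. Their list summed to 521.6 to 616.8 in control arrays, 537.5 to 588.3 in Etv5 knockdown, 490.6 to 746.0 in Bcl6b knockdown and 499.5 to 624.1 in Pou3f1 knockdown. The 6 tested macrophage and leukocyte markers had control means from 17.3 for Csf1r to 188.4 for Tyrobp. Such cells could also carry the sensors, which was not tested. All 4 dendritic cell markers and all 4 endothelial markers were below the median on every array. Among Sertoli cell markers, Amh, Gata4 and Wt1 also lay below it, and Rhox5 and Sox9 had control means of 1756.8 and 366.1. Among Leydig cell markers, Cyp17a1 lay below it, and Star and Hsd3b1 had control means of 1738.8 and 249.8. Over 15 arrays only, Rhox5 fell in Etv5 knockdown and Star in Bcl6b knockdown (limma, adjusted p = 0.0496 and 0.0129). Hsd3b1 rose there in Pou3f1 knockdown (adjusted p = 0.0270). Whether such cells carried the sensors was not tested. Of the fibroblast markers, Vim rose in all 3 knockdowns in both fits, and Col1a1 and Fn1 fell in Pou3f1 knockdown over 15 arrays only, by log2 differences of −0.23 and −0.12 (limma, adjusted p = 0.0251 and 0.0136). Of the germ cell markers, Ret rose in Bcl6b and Pou3f1 knockdown in both fits. Over 15 arrays only, Zbtb16 rose in Etv5 and Pou3f1 knockdown, and in Etv5 knockdown Uchl1 rose and Sall4 fell. Beside these marker calls, 4.58% of all tested genes were called higher and 4.94% lower in Etv5 knockdown over 15 arrays. The shares were 4.07% and 6.87% in Bcl6b knockdown and 4.3% and 7.08% in Pou3f1 knockdown. Over 16 arrays 1.31%, 1.65% and 1.03% were called higher in Etv5, Bcl6b and Pou3f1 knockdown. Of the macrophage and leukocyte markers, only Lyz2 was called in Etv5 knockdown, where it fell over 15 arrays by −1.57 (limma, adjusted p = 0.00893). Its groups overlapped, and it was not called in the fit of all arrays (limma, adjusted p = 0.0747). The other tested markers of that list were not called in Etv5 knockdown in either fit. Ptprc, Cd68, Cd14 and Tyrobp differed there by 0.30, 0.24, 0.11 and 0.08, and Csf1r by −0.05. In bulk cultures, fewer cells of a type and less RNA per cell cannot be told apart.

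Across the cytosolic and endosomal sensors, Pou3f1 knockdown gave the lowest mean of the 4 groups and Bcl6b knockdown raised some of the same genes above the control. Against the control, Tlr3, Ifih1 and Zbp1 fell in Pou3f1 knockdown in the fit of 16 arrays, and Ddx58, Dhx58 and Eif2ak2 also fell in the fit of 15. Mavs, the adaptor, passed the test in neither. Ifih1, Dhx58 and Zbp1 rose in Bcl6b knockdown in both fits, and no sensor passed in Etv5 knockdown in either.

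Ifih1 encodes MDA5, the helicase that binds long double-stranded RNA. Its only probe set gave intensities of 592, 811, 657 and 676 in control arrays 1 to 4. It gave 784, 971, 664 and 819 in Etv5 knockdown, 1492, 1143, 1036 and 850.0 in Bcl6b knockdown, and 405, 448, 342 and 361 in Pou3f1 knockdown. All Pou3f1 knockdown arrays lay below all control arrays, all Bcl6b knockdown arrays lay above them, and the Etv5 knockdown arrays overlapped them. In Pou3f1 knockdown Ifih1 fell to 0.57 times the control, a log2 difference of −0.81 ± 0.15 (SE, limma, n = 4 each, adjusted p = 0.00959), with an adjusted p of 1.63e-04 over 15 arrays. In Bcl6b knockdown it rose by a log2 difference of 0.70 ± 0.15 (adjusted p = 0.0207), and by 0.56 ± 0.13 without replicate 1 (adjusted p = 0.00846), or 1.47 times the control. Replicate 1 was the highest array of its group.

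Ddx58 encodes RIG-I, which binds the ends of short double-stranded RNA. Its probe set 1436562_at gave 1230 in control array 1, 1171 in array 2, 1240.0 in array 3 and 1159 in array 4. Pou3f1 knockdown arrays gave 941, 924, 797 and 934, and all of them lay below every control array. Etv5 knockdown arrays gave 1165, 1111, 1096 and 1360, on both sides of the control, and Bcl6b knockdown gave 952, 1418, 1328 and 1288. Replicate 1 was the lowest array of the Bcl6b knockdown group here, and the other 3 all lay above the control. The log2 difference in Pou3f1 knockdown was −0.42 ± 0.11 over 16 arrays, just outside the threshold (limma, adjusted p = 0.0506), and −0.42 ± 0.065 over 15 (adjusted p = 3.42e-04). The difference in Bcl6b knockdown was 0.04 over 16 arrays and 0.16 over 15, with adjusted p of 0.854 and 0.146 and a 95% interval of 0.02 to 0.31 in the latter.

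Dhx58 encodes LGP2, which has the helicase but no signalling domain of its own. Probe set 1451426_at gave 119, 137, 109 and 119 in control arrays. It gave 131, 153, 132 and 149 in Etv5 knockdown, 231, 200.5, 197 and 135 in Bcl6b knockdown, and 86.4, 90.0, 60.2 and 84.7 in Pou3f1 knockdown. Pou3f1 knockdown was below the control on every array, while Bcl6b knockdown replicate 4 fell inside the control range and its other arrays lay above it. The log2 difference was −0.60 ± 0.15 in Pou3f1 knockdown over 16 arrays (limma, adjusted p = 0.0559) and −0.60 ± 0.13 over 15 (adjusted p = 0.00619). In Bcl6b knockdown it rose by 0.63 ± 0.15 (adjusted p = 0.0340), and by 0.53 ± 0.14 without replicate 1 (adjusted p = 0.0218).

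At the brightest probe set of each gene, Tlr3, the endosomal receptor, showed the largest fall of the 7 in Pou3f1 knockdown. Probe set 1422782_s_at gave 974, 1081, 999.6 and 919.8 in control arrays and 550.5, 496, 552 and 488 in Pou3f1 knockdown. The groups were far apart, with the brightest Pou3f1 knockdown array well below the dimmest control array. The log2 difference was −0.93 ± 0.077 (SE, limma, adjusted p = 8.56e-06), or 0.526 times the control, and −0.93 ± 0.064 over 15 arrays (adjusted p = 4.08e-08). Etv5 knockdown gave 957, 1001, 940.3 and 995, and Bcl6b knockdown gave 1240.2, 1199, 1082 and 967. Both groups overlapped the control. In Etv5 knockdown the log2 difference was −0.03 with a 95% interval of −0.19 to 0.14, and in Bcl6b knockdown it was 0.17 over 16 arrays (adjusted p = 0.236) and 0.12 over 15 (adjusted p = 0.281).

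Eif2ak2 encodes PKR, the kinase that stops translation when it binds double-stranded RNA. Probe set 1440866_at gave 959, 1015, 927 and 893 in control arrays and 692, 702, 648 and 799.6 in Pou3f1 knockdown, which did not overlap. Etv5 knockdown arrays gave 957, 1124, 810 and 1146. Bcl6b knockdown arrays gave 611, 1300.4, 1132 and 989, so that replicate 1 was lower than every array of the other groups and the other 3 overlapped the control. The log2 difference in Pou3f1 knockdown was −0.42 ± 0.18 over 16 arrays (limma, adjusted p = 0.333) and −0.42 ± 0.098 over 15, where it passed (adjusted p = 0.00949). In Bcl6b knockdown the difference was 0.04 over 16 arrays and 0.26 over 15 (adjusted p = 0.928 and 0.129).

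Zbp1, the sensor of Z-form nucleic acids, was read by probe set 1429947_a_at at 403, 498, 421 and 402 in control arrays. Etv5 knockdown gave 486, 558, 479 and 597, Bcl6b knockdown gave 587, 636, 668 and 536, and Pou3f1 knockdown gave 329, 337, 265 and 269. Pou3f1 knockdown lay wholly below the control and Bcl6b knockdown wholly above it, and only 1 control array reached into the Etv5 knockdown range. In Pou3f1 knockdown Zbp1 fell by a log2 difference of −0.52 ± 0.11 (limma, adjusted p = 0.0145), and the adjusted p over 15 arrays was 0.00188. In Bcl6b knockdown it rose by 0.49 ± 0.11 (adjusted p = 0.0185) and by 0.51 ± 0.11 without replicate 1 (adjusted p = 0.00499), or 1.42 times the control. In Etv5 knockdown the difference was 0.30 ± 0.11 and did not pass, with adjusted p of 0.243 over 16 arrays and 0.0656 over 15.

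Mavs, the adaptor that carries the signal of the RIG-I-like helicases, was not called in any comparison with the control. Probe set 1439185_x_at gave 1506, 1418, 1344 and 1566 in control arrays and 1528, 1598, 1479 and 1731 in Pou3f1 knockdown. Etv5 knockdown gave 1359, 1492, 1350 and 1377, and Bcl6b knockdown gave 1897, 1496, 1326 and 1422. Every knockdown overlapped the control, and Bcl6b knockdown replicate 1 was the brightest array of all. The log2 difference in Pou3f1 knockdown was 0.12 with a 95% interval of −0.08 to 0.31 over 16 arrays and of −0.0011 to 0.24 over 15 (limma, adjusted p = 0.708 and 0.191). An _x_at probe set holds probes that can also match other sequences. The second probe set, 1451176_at, gave 449 to 507 in Pou3f1 knockdown and 480 to 515 in the control, with a log2 difference of −0.08 (adjusted p = 0.671 over 16 arrays and 0.355 over 15).

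**Figure D1:**
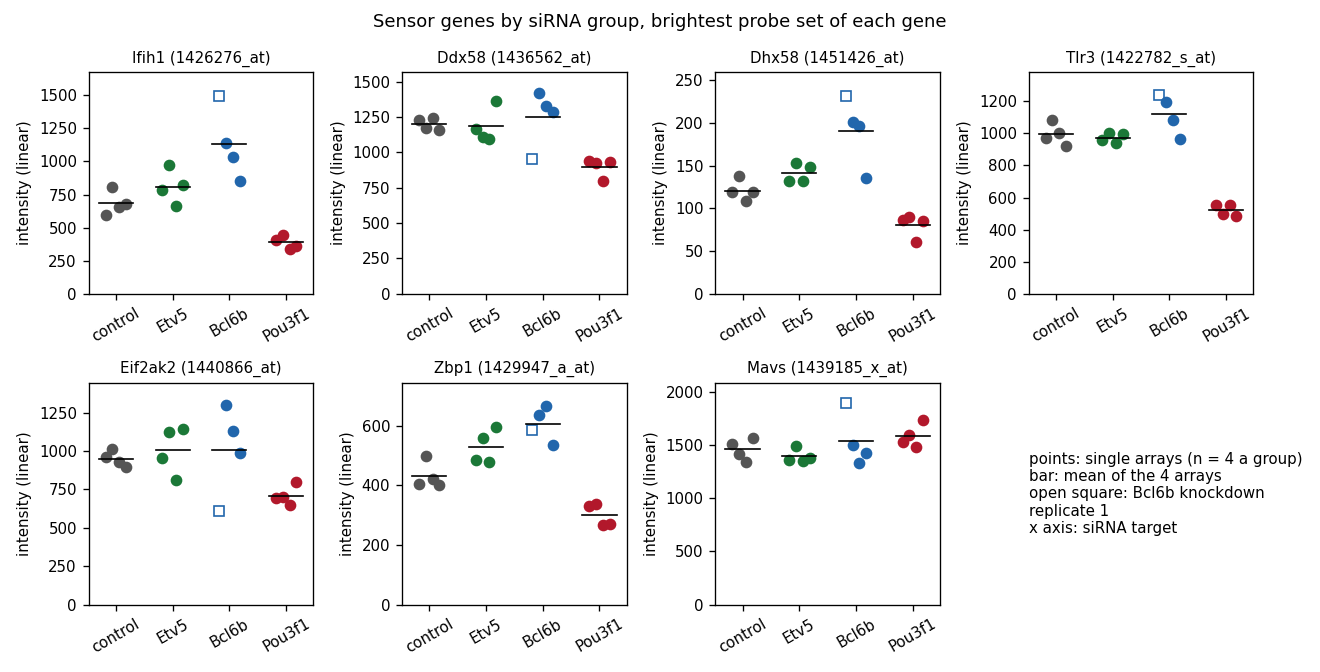
Intensity (linear, vertical axis from 0) of the brightest probe set of each sensor gene on every array, by siRNA target. Points are arrays, bars are means of the 4 arrays of a group, and the open square is Bcl6b knockdown replicate 1. Pou3f1 knockdown arrays lie below the control arrays for every gene but Mavs, with Tlr3 at 488 to 552 against 919.8 to 1081.

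By count, 3 of the 7 sensors fell in Pou3f1 knockdown in the fit of 16 arrays, where 1.22% of all tested genes were called lower and 1.03% higher, and none rose. In the fit of 15 arrays 6 of the 7 fell, beside 7.08% of all tested genes called lower and 4.3% higher. The differences from the control are the same in both fits, since the array left out belongs to another group, and what differs is the spread estimate. On the log2 scale, the residual SD had a median of 0.134 over genes with replicate 1 and of 0.0841 without it. The median log2 difference of the 7 was −0.52, beside −0.02 over all tested genes. All 6 genes other than Mavs had 4 Pou3f1 knockdown arrays below all 4 control arrays. The share of all tested genes separated in this way was not counted. Of the calls over 16 arrays, those of Tlr3 and Ifih1 held whichever array was left out. That of Zbp1 was lost without control replicate 2 or without Pou3f1 knockdown replicate 3 or 4, with a highest adjusted p of 0.0635 in limma, which leaves 2 genes called. From the 15 arrays, the same 6 genes were called whichever further array was left out.

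In Bcl6b knockdown 3 of the 7 sensors rose in both fits, beside 1.65% of all tested genes called higher and 1.56% lower over 16 arrays and 4.07% higher and 6.87% lower over 15. With each array centred on its median, 126 of all tested genes were called higher and 617 lower over 16 arrays, against 184 and 174 as deposited. The median log2 difference of the 7 was 0.17 over 16 arrays and 0.26 over 15, beside −0.01 and −0.04 over all tested genes. These calls were less firm than those in Pou3f1 knockdown. All 3 were lost when control replicate 1, 3 or 4 or Bcl6b knockdown replicate 2 was left out of the 16 arrays, and Dhx58 was also lost without Bcl6b knockdown replicate 3. From the 15 arrays Zbp1 stayed called whichever further array was left out. Ifih1 was lost there without Bcl6b knockdown replicate 2 (adjusted p = 0.0677 in limma), and Dhx58 without control replicate 3 or Bcl6b knockdown replicate 2 or 3.

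In Etv5 knockdown limma called 0 of the 7 sensors in either fit, with 1 at an unadjusted p under 0.05 in each, Zbp1. Of all tested genes 2.09% were called in either direction over 16 arrays and 9.52% over 15. The log2 differences ran from −0.06 in Mavs to 0.30 in Zbp1. The 95% interval over 15 arrays was −0.01 to 0.49 for Ifih1, −0.05 to 0.50 for Dhx58, −0.16 to 0.11 for Ddx58 and −0.13 to 0.28 for Eif2ak2. A fall of the size seen in Pou3f1 knockdown lay outside the Etv5 knockdown interval for each of these and for Tlr3. Zbp1 was called in 2 of the 15 fits that left a further array out of the 15, without control replicate 2 or Etv5 knockdown replicate 3, with adjusted p down to 0.0332. The 3 comparisons with the control share its 4 arrays and are not independent of one another.

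**Figure D2:**
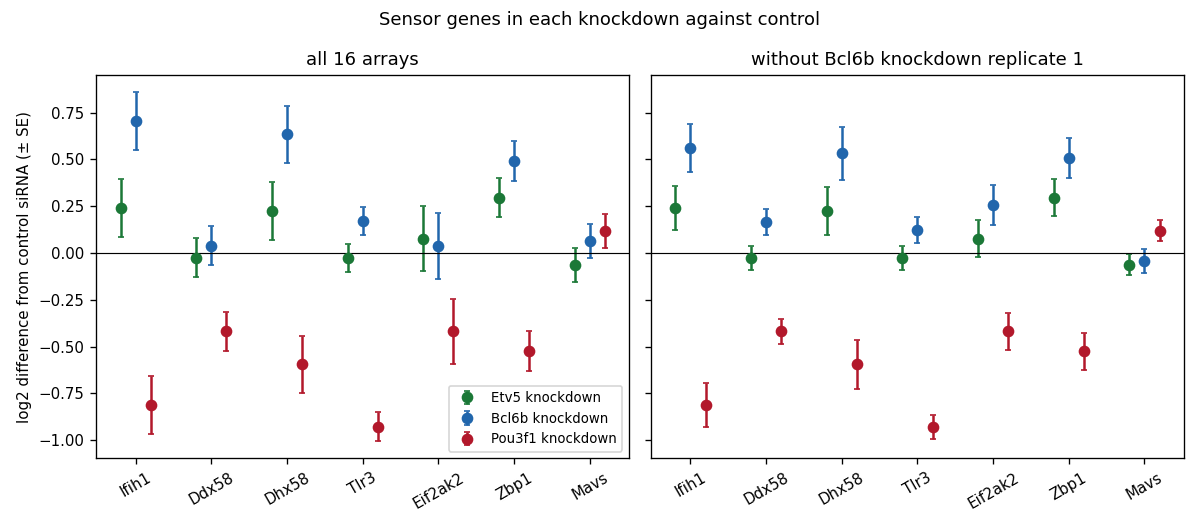
Log2 difference of each sensor from the control siRNA (vertical axis, ± SE from limma) in Etv5, Bcl6b and Pou3f1 knockdown, with all 16 arrays on the left and without Bcl6b knockdown replicate 1 on the right. Pou3f1 knockdown runs from −0.93 in Tlr3 to −0.42 in Ddx58 and Eif2ak2, with Mavs at 0.12, and the error bars of Ddx58 and Eif2ak2 are narrower on the right.

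The knockdowns were also compared directly, by differences that do not use the control arrays. Against Bcl6b knockdown, Pou3f1 knockdown was lower for 5 of the 7 sensors over 16 arrays, where 1.44% of all tested genes were called lower (161, with 82 higher, against 116 and 215 after median centring), and for 6 over 15 arrays, where 2.88% were. Ifih1 differed most, by a log2 difference of −1.51 ± 0.15 over 16 arrays and −1.37 ± 0.13 over 15 (limma, adjusted p = 3.66e-05 and 1.75e-06). Dhx58 followed at −1.23, Tlr3 at −1.10 and Zbp1 at −1.02 over 16 arrays. Ddx58 differed by −0.46 (adjusted p = 0.0302), and lost the call in 7 of the 16 fits that left an array out. Those were the fits without Bcl6b knockdown replicate 2, 3 or 4 or without any of the Pou3f1 knockdown arrays. Eif2ak2 passed over 15 arrays, at −0.68 ± 0.11 (adjusted p = 4.94e-04), and not over 16, where its groups overlapped through replicate 1. Mavs differed by 0.06 over 16 arrays and 0.16 over 15 and was called in neither (adjusted p = 0.743 and 0.159).

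Against Etv5 knockdown, Pou3f1 knockdown was lower for 4 of the 7 over 16 arrays, beside 0.933% of all tested genes, and for 6 over 15, beside 3.75%. The log2 differences over 16 arrays were −1.05 ± 0.15 for Ifih1, −0.90 ± 0.077 for Tlr3, −0.82 ± 0.15 for Dhx58 and −0.82 ± 0.11 for Zbp1, with adjusted p in limma of 0.00132, 2.61e-05, 0.00974 and 5.68e-04. Ddx58 and Eif2ak2 differed by −0.39 and −0.50 and passed over 15 arrays only (adjusted p = 9.20e-04 and 0.00436). Mavs was 0.18 higher in Pou3f1 knockdown and missed the threshold over 15 arrays (adjusted p = 0.0669), with a 95% interval of 0.06 to 0.30.

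Between Bcl6b and Etv5 knockdown limma called 0 of the 7 in either fit, with 3 at an unadjusted p under 0.05 over 16 arrays and 4 over 15, where 1.49% and 4.5% of all tested genes were called in either direction. The log2 differences were 0.46 ± 0.15 for Ifih1 and 0.41 ± 0.15 for Dhx58 over 16 arrays (adjusted p = 0.187 and 0.249). Without replicate 1 they were 0.32 and 0.31.

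The order of the group means was Pou3f1 knockdown, control, Etv5 knockdown and Bcl6b knockdown, from low to high, for Ifih1, Dhx58 and Zbp1. In that order the control and Etv5 knockdown did not differ beyond the threshold for any of them, nor did Etv5 and Bcl6b knockdown. For Ddx58 and Tlr3 the Etv5 knockdown mean lay just below the control, with the same lowest and highest groups. Eif2ak2 had the order of Ifih1 without replicate 1, while with it Etv5 knockdown was highest. Mavs had its lowest mean in Etv5 knockdown and its highest in Pou3f1 knockdown.

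Most sensors were read by more than 1 probe set, which target different stretches of the transcript. In a fit of all 45037 probe sets with no filter on dim ones, 14 of the 16 had a negative difference in Pou3f1 knockdown. The exceptions were Mavs 1439185_x_at and Dhx58 1420769_at, the latter at 3.37 to 3.53 on all arrays, close to the lowest intensities deposited. The 14 include Ddx58 1446457_at, at −0.08 and also that dim. The median log2 difference of all probe sets was 0.02, and the share of them below 0 was not counted. Over 15 arrays 9 of the 16 fell, beside 1.76% of all probe sets, and over 16 arrays 2 fell, Tlr3 1422782_s_at and Ifih1 1426276_at, beside 0.229%. The 9 were the brightest probe set of each gene but Mavs, the second of Tlr3 and the other 2 of Eif2ak2.

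Tlr3 1422781_at gave 532, 566, 469 and 488 in control arrays and 302, 300, 309 and 468 in Pou3f1 knockdown. Here Pou3f1 knockdown replicate 4 stood apart from its group, just below the control range, and the log2 difference was −0.60 ± 0.13 over 15 arrays (limma, adjusted p = 0.0167) against −0.93 at the other Tlr3 probe set. The Eif2ak2 probe sets were closer to each other. Their differences were −0.42, −0.33 and −0.59 for 1440866_at, 1422006_at and 1422005_at, with adjusted p of 0.0437, 0.0351 and 0.0158 over 15 arrays. The control gave 637 to 752 at 1422006_at and 147 to 189 at 1422005_at, and Pou3f1 knockdown gave 504 to 603 and 97.6 to 135, with no overlap at either.

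Ddx58 1456890_at differed by −0.41 ± 0.15, much as its brightest probe set did, with Pou3f1 knockdown at 226 to 346 overlapping the control at 345 to 469 (limma, adjusted p = 0.178 over 15 arrays). Ddx58 1446457_at gave 4.61 to 5.52 on all arrays, close to the lowest intensities. Zbp1 1419604_at differed by −0.50 ± 0.20 and did not pass (adjusted p = 0.212), with control arrays spread from 45.3 to 94.1. Dhx58 1420768_a_at was dim, at 8.66 to 15.7 in the control, 18.5 to 31.7 in Bcl6b knockdown replicates 2 to 4 and 5.21 to 10.7 in Pou3f1 knockdown. It rose in Bcl6b knockdown over 15 arrays by 1.09 ± 0.23 (adjusted p = 0.0132). Over 16 arrays, with replicate 1 at 4.24, below every control array, the difference was 0.50 ± 0.44 and was not called (adjusted p = 0.675). Ifih1 1426276_at and Zbp1 1429947_a_at rose there in both fits, which makes 2 of the 16 over 16 arrays, beside 0.846% of all probe sets, and 3 over 15, beside 2.75%. The other detected Dhx58 probe set, 1451426_at, had the same direction and missed the threshold among all probe sets, with an adjusted p of 0.0698 over 16 arrays and 0.0578 over 15.

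**Figure D3:**
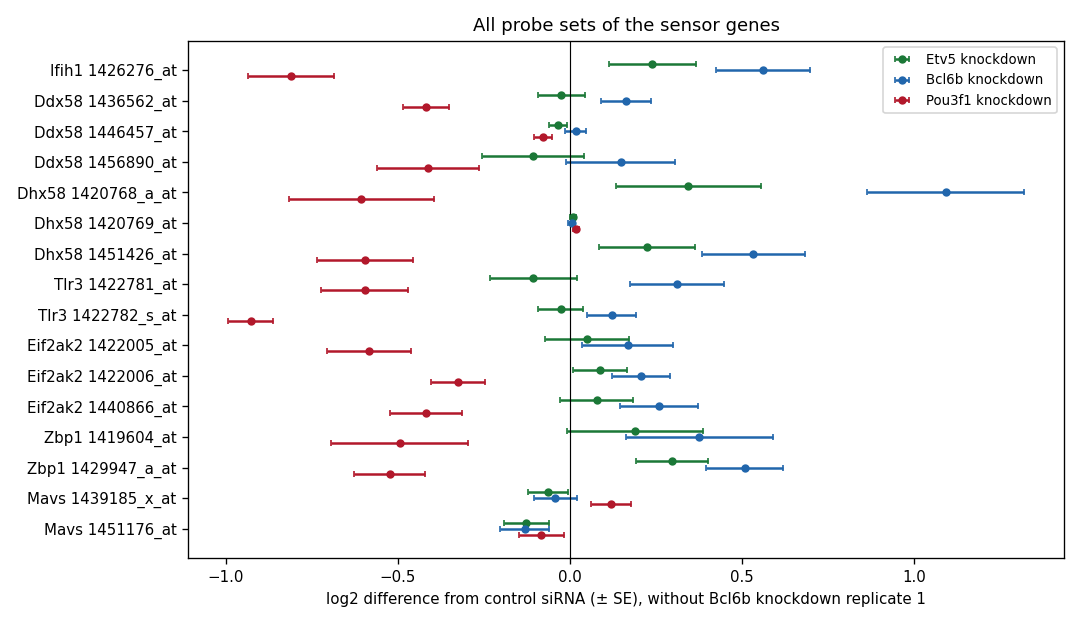
Log2 difference from the control siRNA (horizontal axis, ± SE from limma over all probe sets, without Bcl6b knockdown replicate 1) for each of the 16 probe sets of the sensor genes, in Etv5, Bcl6b and Pou3f1 knockdown. In Pou3f1 knockdown 14 of the 16 lie below 0, and Dhx58 1420768_a_at reaches 1.09 in Bcl6b knockdown.

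Bcl6b knockdown replicate 1 differed from its group in opposite directions at the probe sets of some genes. Its log2 intensity minus the mean of replicates 2 to 4 was −2.07, −1.59 and −0.89 at the 3 Eif2ak2 probe sets, and −1.40 and 0.20 at the 2 Tlr3 probe sets. For Dhx58 the shifts were −2.38 at 1420768_a_at and 0.40 at 1451426_at, and for Mavs −0.45 and 0.42. At the only Ifih1 probe set the shift was 0.57, and at the 2 Zbp1 probe sets it was −0.06 and −0.32. Of all tested genes, 8.83% shifted by more than 1 on the log2 scale on this array, 3.89% lower and 4.94% higher. The part of the control probe sets' 3′ excess in these shifts was not tested.

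**Figure D4:**
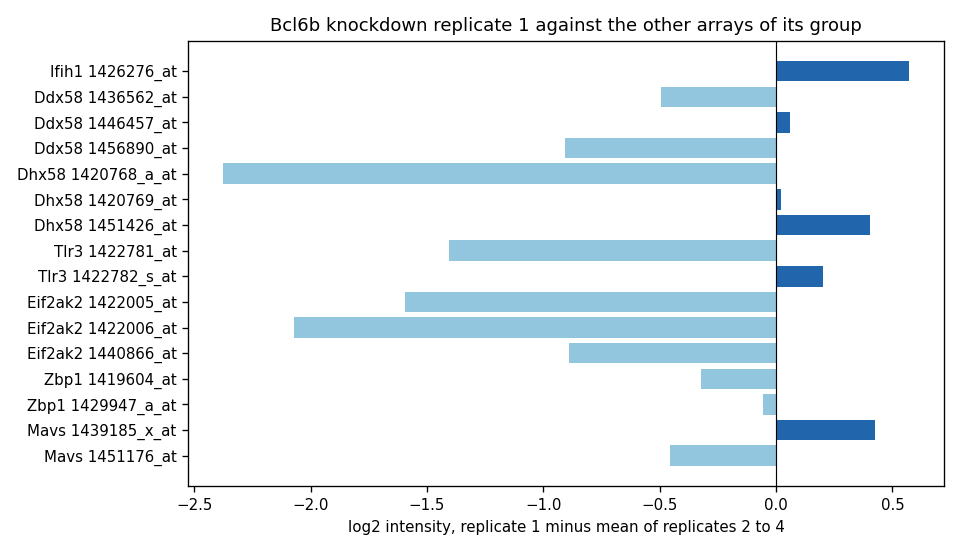
Log2 intensity of Bcl6b knockdown replicate 1 minus the mean of replicates 2 to 4 (horizontal axis) for each of the 16 sensor probe sets. Light bars are lower and dark bars higher than the rest of the group, from −2.38 at Dhx58 1420768_a_at to 0.57 at Ifih1 1426276_at.

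Genes that act with the sensors were read from lists of textbook members. Among the adaptors and signalling proteins below the sensors, 19 of 24 were tested. In Pou3f1 knockdown 1 rose and 1 fell over 16 arrays, and 1 rose and 2 fell over 15, with a median log2 difference of −0.08. Of all tested genes, 1.03% rose and 1.22% fell over 16 arrays and 4.3% and 7.08% over 15, so that 2 of 19 over 15 is near the background. Sting1, the adaptor of cytosolic DNA sensing, fell by a log2 difference of −0.54 (limma, adjusted p = 0.0208). Ripk3, the kinase that acts below Zbp1 in necroptosis, was called lower in Bcl6b knockdown at −0.32 (adjusted p = 0.0183), and in Pou3f1 knockdown only over 15 arrays, at −0.22 (adjusted p = 0.00800). Over 15 arrays Ripk3 and Sting1 were also lower in Etv5 knockdown, by −0.17 and −0.38 (adjusted p = 0.0380 and 0.0213). Ikbkg, the regulatory subunit of the kinase that frees NF-kappaB, was higher in all 3 knockdowns, by 0.62 in Etv5, 0.74 in Bcl6b and 0.54 in Pou3f1 knockdown, against the same 4 control arrays. Ticam1, the adaptor of Tlr3, and the kinase Tbk1 differed by −0.08 and −0.02 in Pou3f1 knockdown and were not called.

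Of the regulators of the sensors, 22 of 25 were tested, and in Pou3f1 knockdown 3 fell and 0 rose over 16 arrays and 6 fell and 2 rose over 15, beside the same shares of all tested genes, 1.22% and 1.03% over 16 and 7.08% and 4.3% over 15. Usp18, a brake on interferon signalling, fell by a log2 difference of −0.96 (limma, adjusted p = 0.00256). Trim25, the ubiquitin ligase known to activate RIG-I, fell by −0.37 (adjusted p = 0.00914), and Adar, which edits double-stranded RNA, by −0.31 (adjusted p = 0.0274). Ddx60, a helicase reported to assist the RIG-I-like receptors, was at −0.99, outside the threshold over 16 arrays and past it over 15 (adjusted p = 0.100 and 1.08e-04). The 2 that rose over 15 arrays were the deubiquitinases Usp15 and Cyld, at 0.43 and 0.30, which rose in all 3 knockdowns against the same control arrays. In Bcl6b knockdown limma called 0 of the 22 over 16 arrays, with 7 at an unadjusted p under 0.05, and 5 rose over 15, beside 4.07% of all tested genes, among them Trim25 at 0.22 and Nlrc5 at 0.40 (adjusted p = 0.0349 and 0.0270).

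Of the other sensors of nucleic acids, 10 of 14 were tested. In Pou3f1 knockdown only Dhx33 was called, beside 1.03% of all tested genes called higher over 16 arrays and 4.3% over 15. It rose by 0.23 (limma, adjusted p = 0.0320), as it did by 0.25 in Etv5 and 0.24 in Bcl6b knockdown. Over 15 arrays Dhx36 also rose in Etv5 and Bcl6b knockdown, by 0.12 and 0.15 (adjusted p = 0.0440 and 0.0222). Cgas fell in Etv5 knockdown over 15 arrays, by −0.23 (adjusted p = 0.0244). Over 15 arrays 4.58% of all tested genes were called higher and 4.94% lower in Etv5 knockdown, and 4.07% higher in Bcl6b knockdown. The other eIF2 alpha kinases and their response genes, which act beside and below PKR, gave 0 calls of 12 tested in Pou3f1 knockdown in either limma fit, with 1 and 4 at an unadjusted p under 0.05 and a median of −0.03. In that list Eif2ak1, Eif2ak3 and Eif2ak4 differed by −0.12, −0.03 and −0.04, and Ddit3 and Ppp1r15a by −0.13 and 0.02. In Bcl6b knockdown 2 of the 12, Asns and Sesn2, fell over 15 arrays only, beside 6.87% of all tested genes called lower. They differed by −0.14 and −0.40 (adjusted p = 0.0287 and 0.0240).

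The small RNA machinery that handles siRNA had 14 of 15 members tested. Tnrc6a, the scaffold that links Argonaute to the silencing machinery, was higher in all 3 knockdowns, by a log2 difference of 0.57 in Etv5, 0.41 in Bcl6b and 0.47 in Pou3f1 knockdown (limma, adjusted p = 3.66e-04, 0.00413 and 0.00175). These 3 rises are against the same 4 control arrays. Over 16 arrays Tnrc6a was the only 1 of the 14 called in each, beside 1.31%, 1.65% and 1.03% of all tested genes called higher. Over 15 arrays Tnrc6b and Ago1 fell in Pou3f1 knockdown by −0.28 and −0.16 (adjusted p = 0.00807 and 0.0496), and Ago2 rose in Etv5 knockdown by 0.18 (adjusted p = 0.0187). That makes 2 of 14 falling in Pou3f1 knockdown, beside 7.08% of all tested genes called lower. In Etv5 knockdown 2 of 14 rose, beside 4.58% called higher. Of the interferons and their receptors 4 of 11 were tested, the receptor chains Ifnar1, Ifnar2, Ifngr1 and Ifngr2, and no interferon gene on the list passed the filter on dim genes. Ifnar2, a chain of the type I receptor, was at −0.20 in Pou3f1 knockdown, called over 15 arrays only (adjusted p = 0.125 over 16 and 0.0157 over 15). Ifngr2, a chain of the interferon gamma receptor, was lower in Bcl6b knockdown over 15 arrays only, by −0.39 (adjusted p = 0.0799 over 16 and 0.0129 over 15). It was lower in Bcl6b than in Etv5 knockdown in both fits, by −0.44 and −0.50 (adjusted p = 0.0346 and 0.00435). Against the control, 1 of the 4 chains fell over 15 arrays in each of Pou3f1 and Bcl6b knockdown. Of all tested genes 7.08% and 6.87% were called lower there. Between Bcl6b and Etv5 knockdown 1.49% of all tested genes were called in either direction over 16 arrays and 4.5% over 15.

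The interferon-induced effectors, which act after the sensors, also differed between the groups. Of 18 tested of 20, 13 fell in Pou3f1 knockdown over 16 arrays and all 18 over 15, beside 1.22% and 7.08% of all tested genes, with a median log2 difference of −0.85. Ccl5, a chemokine, fell by −1.97 and Rsad2, an antiviral enzyme, by −1.57 (limma, adjusted p = 1.23e-04 and 5.38e-04). In Bcl6b knockdown 4 of the 18 rose over 16 arrays and 12 over 15, beside 1.65% and 4.07%, with medians of 0.43 and 0.41, and Oas1a, which makes the activator of RNase L, rose by 0.69 (adjusted p = 0.0142). In Etv5 knockdown limma called 0 over 16 arrays, with 3 at an unadjusted p under 0.05, and 1, Ifit2, rose over 15, by 0.28 (adjusted p = 0.0120). That is near the 4.58% of all tested genes called higher there over 15 arrays, with 4.94% lower, against 1.31% and 0.781% over 16. Averaged per array and centred on the control mean, the 7 sensors lay between −0.04 and 0.12 on the log2 scale in control arrays, −0.04 and 0.20 in Etv5 knockdown, 0.13 and 0.44 in Bcl6b knockdown and −0.66 and −0.43 in Pou3f1 knockdown. The 18 effectors lay between −0.17 and 0.20, 0.02 and 0.25, 0.14 and 0.63 and −1.0 and −0.57 in the same groups. Both means separated Pou3f1 knockdown from every other array. Over 16 arrays only the sensor mean separated all of Bcl6b knockdown from the control, and narrowly, at a lowest of 0.13 against a highest of 0.12. Without replicate 1 the effector mean separated them too, with a lowest Bcl6b knockdown array of 0.28 and a highest control array of 0.20.

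**Figure D5:**
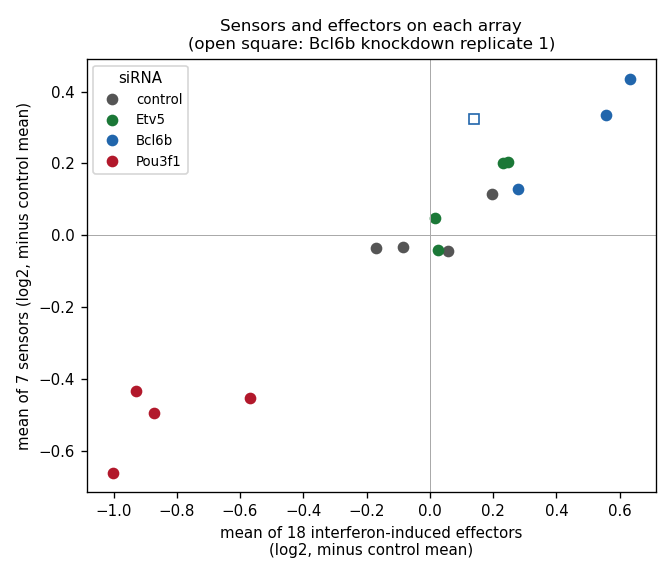
Mean log2 intensity of the 7 sensors (vertical axis) and of 18 interferon-induced effectors (horizontal axis) on each array, both minus the control mean, coloured by siRNA target. The open square is Bcl6b knockdown replicate 1. The 4 Pou3f1 knockdown arrays sit at −0.66 to −0.43 in sensors and −1.0 to −0.57 in effectors.

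Among all tested genes other than the sensors, those whose log2 values over the arrays were most like the mean of the 7 sensors were Oas1a, Igtp and Irgm2 over 16 arrays, at Pearson r of 0.989, 0.982 and 0.972. Over 15 arrays they were Ifi35, Oas1a and Irgm2, at 0.990, 0.989 and 0.987. Single sensors had like neighbours. Tlr3 was nearest to Iigp1, at 0.979 in both sets of arrays, Zbp1 to Irf7, at 0.982 over 16 and 0.987 over 15, and Eif2ak2 to Irf9, at 0.947 over 16, and to Adar, at 0.967 over 15. Mavs was nearest to Tmem109 over 16 arrays, at 0.943, and to Depdc1a over 15, at 0.915. These values describe likeness over arrays that share their groups, so they reflect the group differences, and they were picked as the highest of 11145 genes. Between sensors, Ifih1 and Zbp1 had r of 0.945 over 16 arrays and 0.974 over 15, and 0.605 and 0.825 for deviations from their group means. Ddx58 and Tlr3 had 0.745 and 0.896, and Mavs and Tlr3 −0.273 and −0.673. Their deviations from group means gave values whose sign turned with Bcl6b knockdown replicate 1, −0.30 over 16 arrays and 0.12 over 15 for Ddx58 and Tlr3, and 0.21 and −0.28 for Mavs and Tlr3.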

How the data were processed

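Per the labels' protocols, total RNA isolated with Trizol and cleared of DNA with DNase was turned into cDNA with a poly(T) primer, labelled with biotin and read on Affymetrix mouse arrays, 1 array for each of 16 samples. The authors deposited linear intensity values, 1 per probe set and array, from 1.66 to 71511. Affymetrix Expression Console 1.1, Partek 6.4, MAS5 and GCRMA appear in the submitters' processing notes without saying what each did, so how the arrays were normalized against each other is unknown here. The platform annotation paired 34945 probe sets with 1 gene, 932 with several and 9160 with none; only those with 1 gene were named.

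The deposited intensities were taken as log2(intensity + 1), which understates the change of dim genes. Each gene took its probe set with the highest mean, and genes entered the test when they exceeded the array's median on 4 or more arrays, 11145 of 18193 genes or 61.3%. limma 3.58.1 in R 4.3.3 (lmFit, eBayes with trend) was fitted to the 4 groups without covariates, with two-sided tests and Benjamini-Hochberg adjustment over all tested genes, and checked on simulated data. The fit without Bcl6b knockdown replicate 1 is given beside it. Intervals are 95% and SE values come from the fit. Precision is limited by the number of arrays. Samples were not treated as paired by replicate number, and whether the numbers pair them is not known. Over 24 same-number pairs the correlation of deviations from group means ran from −0.26 to 0.20, with 16 above 0. The alternatives changed the scaling, pseudocount, filter, probe set rule, spread model and arrays. Members, lists and tests were chosen with earlier results of these data known. Named genes were all sensors and their probe sets, the targets, up to 4 called members of each list by smallest p (with none called, the 2 of smallest p) and the 3 genes most like each sensor. Not every gene that this rule picked is printed. List members named beyond the rule, among them Ticam1, Tbk1 and the kinases Eif2ak1, Eif2ak3 and Eif2ak4, were chosen after their values were seen. So were the Pou3f1 knockdown values of Ppp1r15a, Cyld and Usp15, which the rule picked in other comparisons.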

Additional observations from a re-analysis of the deposited data

Results flagged for a closer look

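Of 64 groups of 4 arrays checked over the 16 probe sets, 4 held an array far from the other 3 by Dixon's test, which chance passes in about 1 of 20 groups. Pou3f1 knockdown replicate 3 was low at Ddx58 1436562_at, at 797 against 924 to 941 on the other arrays of its group, and at Dhx58 1451426_at, at 60.2 against 84.7 to 90.0. Pou3f1 knockdown replicate 4 was high at Tlr3 1422781_at, at 468 against 300 to 309. Bcl6b knockdown replicate 1 was low at Eif2ak2 1422006_at, at 190.4 against 711 to 885. The fits without each of these arrays are among those in the next part.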

How the results depend on the processing

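Each comparison was refitted under 27 alternatives, and in 15 fits, chosen after seeing the data, that left a further array out of the 15. No called difference changed sign. In Pou3f1 knockdown against control the 3 calls became 6 with array weights, with only the groups compared, and with the replicate block without Bcl6b knockdown replicate 1, 4 with median centring or a mean log2 of at least 5, and 2 with the mean over probe sets, where Zbp1 was lost (adjusted p = 0.0743), and ran from 2 to 6 when 1 array was left out, with 6 throughout from the 15 arrays. In Bcl6b knockdown against control the 3 calls became 1 with the mean over probe sets, 2 with no filter on dim genes and 0 with only the groups compared, and ran from 0 to 3 when 1 array was left out and from 1 to 3 from the 15 arrays. Pou3f1 against Etv5 knockdown gave 4, 7 with array weights and 7 with the replicate block without replicate 1, 6 with only the groups compared, 3 with the mean over probe sets, where Dhx58 was lost (adjusted p = 0.102), and 4 to 6 or, from the 15 arrays, 6 to 7 when 1 array was left out. Pou3f1 against Bcl6b knockdown gave 4 to 6, and Etv5 knockdown against control and Bcl6b against Etv5 knockdown gave 0, or 0 to 1 from the 15 arrays, where Ddx58 was called without Etv5 knockdown replicate 4. The seventh call with weights or the block was Mavs. The replicate block in the 16 arrays left the counts against the control at 0, 3 and 3 for Etv5, Bcl6b and Pou3f1 knockdown, and those for Pou3f1 against Bcl6b and Etv5 knockdown at 4 and 4; only 4 of 16 arrays correlated best with their own number. Over all genes, 251 calls in Pou3f1 knockdown against control became 1268 without replicate 1, 1744 with array weights and 1140 with only the groups compared; in Bcl6b knockdown 358 became 1220, 2082 and 62, and 743 with median centring; in Etv5 knockdown 233 became 1061, 1662 and 996, and 154 with median centring. Without replicate 1, with array weights and with only the groups compared, the 243 calls of Pou3f1 against Bcl6b knockdown became 570, 908 and 74, the 161 of Pou3f1 against Etv5 knockdown 709, 954 and 325, and the 166 of Bcl6b against Etv5 knockdown 502, 1032 and 2, with 259 after median centring. The cause of these shifts was not tested. Dim probe sets of Ddx58 and Dhx58 near the floor could show no change.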
